A study of Homo sapiens with 3 samples.

Results

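The SWI/SNF complexes remodel chromatin, and 10 of their subunit genes were followed here in A549, a cell line established from a human lung adenocarcinoma, after knockdown of the RNA helicase DDX24. The members were given by name as PBRM1, ARID2 and BRD7, ARID1A and ARID1B, and SMARCA4, SMARCA2, SMARCB1, SMARCC1 and SMARCC2. The study followed the splicing of PBRM1 and reported, by RT-PCR, more of its shorter variant after DDX24 knockdown. All 10 were found by gene name among the 58735 genes counted, and all 10 were among the 13984 genes that averaged 1 CPM or more over the 3 libraries. CPM is a count scaled by its library's total, and 1 count equals 0.0547 to 0.0586 CPM here.

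The control line (Control-sh) and the lines with either of 2 shRNAs against DDX24 (DDX24-sh1, DDX24-sh2) gave 1 library each, 3 in all. Where 3 values follow each other they are in that order. Per the study's methods, all 3 lines carried a lentiviral pLKO.1 vector and were selected and kept in puromycin, so the control cells shared the vector and the drug. The methods describe the control as the empty vector and a figure legend as a control shRNA, and the label does not say which. With 1 library per condition there is no replicate, no test between conditions was run, and the state of a culture cannot be told apart from the effect of an shRNA.

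SWI/SNF complexes use the energy of ATP to slide or evict nucleosomes and so open enhancers and promoters. Each complex holds 1 ATPase, SMARCA4 or SMARCA2, and the core of BAF and PBAF holds SMARCC1, SMARCC2 and SMARCB1, the last of which is absent from non-canonical BAF. Canonical BAF is defined by ARID1A or ARID1B, which exclude each other, and PBAF by ARID2 together with PBRM1 and BRD7, which bind acetylated histones through bromodomains. Several of these genes are recurrently mutated in lung cancer, and A549 is known as a line that has lost SMARCA4 protein through a truncating mutation.

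The counts summed to between 17218884 and 18337471 per library, and mitochondrial genes took 4.36%, 5.13% and 7.04% of them. DDX24, the gene targeted, had 2010, 637 and 765 counts, so that 29.6% and 36.0% of its control level remained after scaling. All 9 A549 epithelial markers checked, among them KRT8, KRT18 and ALDH1A1, were at 1 CPM or more in each library, whereas no marker of leukocytes or endothelium was. EPCAM was the epithelial marker nearest that limit, with 32, 29 and 29 counts (1.87, 1.59 and 1.61 CPM). PTPRC and CD3E were at 0 in each library, and LYZ had 3, 1 and 0 counts. Of 4 fibroblast markers COL1A1 passed 1 CPM in each library, with 139, 174 and 143 counts, and the summed level of the list was 9.55, 11.9 and 8.86 CPM. The alveolar type II markers SFTPC (3, 4 and 4 counts) and SFTPB (0, 2 and 3) were near 0 and NKX2-1 was at 0, so the lung origin rests here on the label. The names of the shRNA libraries are exchanged between the deposited counts and the deposited FPKM, and which of them is right is not known. The names used below are those of the counts.

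PBRM1 (ENSG00000163939, chr3:52545352-52685917 on the minus strand, GRCh38) has 20 transcripts in GENCODE 29, of which 17 are protein-coding. The exon of PBRM1 that the study followed is not located in the sources used here. Counts per gene sum over transcripts with and without an exon, so they carry no exon use. GENCODE 29 holds 4 coding exons of PBRM1 that some coding transcripts include and others skip, and they are shown because any of them would be lost from view in the gene total. Each is printed 5′ to 3′ on the strand of the gene with the alternative exon in capitals and 20 bases of the neighbouring exons in lower case. The 156 nt and 165 nt exons are printed as in the transcript with the longest coding sequence, which holds both side by side. There each of them gives a lower-case flank of the other. No other coding transcript that spans them holds both, so these flanks differ in other transcripts.
PBRM1 exon of 45 nt, chr3:52624897-52624941: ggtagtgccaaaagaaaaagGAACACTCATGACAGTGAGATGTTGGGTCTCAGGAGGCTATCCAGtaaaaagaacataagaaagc
PBRM1 exon of 96 nt, chr3:52643248-52643343: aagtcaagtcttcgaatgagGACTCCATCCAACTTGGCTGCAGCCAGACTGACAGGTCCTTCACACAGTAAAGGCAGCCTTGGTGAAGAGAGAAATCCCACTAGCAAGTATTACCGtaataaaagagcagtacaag
PBRM1 exon of 156 nt, chr3:52554724-52554879: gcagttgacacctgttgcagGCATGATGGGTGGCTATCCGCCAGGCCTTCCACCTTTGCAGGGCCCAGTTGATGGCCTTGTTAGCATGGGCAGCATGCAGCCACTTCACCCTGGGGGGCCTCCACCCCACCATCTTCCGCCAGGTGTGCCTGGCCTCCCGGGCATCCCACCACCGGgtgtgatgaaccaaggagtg
PBRM1 exon of 165 nt, chr3:52558249-52558413: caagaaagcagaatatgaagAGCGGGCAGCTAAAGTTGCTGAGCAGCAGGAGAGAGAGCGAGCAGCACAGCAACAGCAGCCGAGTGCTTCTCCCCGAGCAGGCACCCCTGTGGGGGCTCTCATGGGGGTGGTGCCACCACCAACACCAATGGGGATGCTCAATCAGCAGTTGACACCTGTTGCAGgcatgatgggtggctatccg
The length of each of the 4 is a multiple of 3, so that skipping it keeps the reading frame. The 45 nt exon is held by 3 of the 10 coding transcripts that span it, the 96 nt exon by 9 of 10, the 156 nt exon by 5 of 8 and the 165 nt exon by 2 of 9. Beside the 5145 nt of the transcript with the longest coding sequence, the 165 nt exon amounts to 3.21% of the length and the 45 nt exon to 0.875%.

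Among the PBAF subunits, ARID2 was lower than in the control in both shRNA libraries, whereas PBRM1 and BRD7 were lower in DDX24-sh1 alone. PBRM1 had 699, 653 and 806 counts, or 41.0, 35.7 and 44.7 CPM after scaling. DDX24-sh1 thus held the lowest and DDX24-sh2 the highest of the 3 levels of PBRM1. Relative to Control-sh its log2 ratio was -0.20 in DDX24-sh1, with an exact 95% counting interval of -0.35 to -0.04. In DDX24-sh2 the log2 ratio was 0.12 and the interval of -0.02 to 0.27 held 0, whereas under scaling by total counts the ratio was 0.15 and its interval lay above 0. The intervals come from the counts of the pair of libraries compared and cover counting error only. In bulk RNA, fewer cells that express a gene and less RNA per cell cannot be told apart. With the names of the FPKM, the values of the shRNA libraries change places for PBRM1 as for every gene. Set against each other without the control, DDX24-sh2 was above DDX24-sh1 for PBRM1 by 0.32 in log2 units (interval 0.17 to 0.47). An exon of SMIM4 lies on the other strand over 146 nt of PBRM1 exons, and SMIM4 had 74, 117 and 94 counts.

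ARID2, the scaffold specific to PBAF (chr12:45729665-45908040 on the plus strand), had 952, 684 and 658 counts, or 55.8, 37.4 and 36.5 CPM. Both shRNA libraries were below the control, at 67.0% and 65.4% of its level. The log2 ratio was -0.58 (interval -0.72 to -0.43) for DDX24-sh1 and -0.61 for DDX24-sh2 (interval -0.76 to -0.47), each the farthest from 0 among the 10 members. Between the shRNA libraries ARID2 differed by -0.04 in log2 units, within an interval of -0.19 to 0.12. No other gene of GENCODE 29 shares exon bases with ARID2, and no other transcript matched it at 95% identity over 200 nt or more.

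BRD7, the bromodomain subunit of PBAF (chr16:50313487-50368934 on the minus strand), had 1269, 1221 and 1407 counts, or 74.3, 66.8 and 77.9 CPM. Its order over the libraries was that of PBRM1, with DDX24-sh1 lowest and DDX24-sh2 highest. The log2 ratio to the control was -0.16 in DDX24-sh1 (interval -0.27 to -0.04), while that of DDX24-sh2 was 0.07 (interval -0.04 to 0.18). BRD7 shares 3593 nt of exon with ADCY7 on the opposite strand, which had 302, 379 and 284 counts. A processed pseudogene, BRD7P2, is 97.5% identical over 1963 nt and had 17, 23 and 19 counts.

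**Figure D1:**
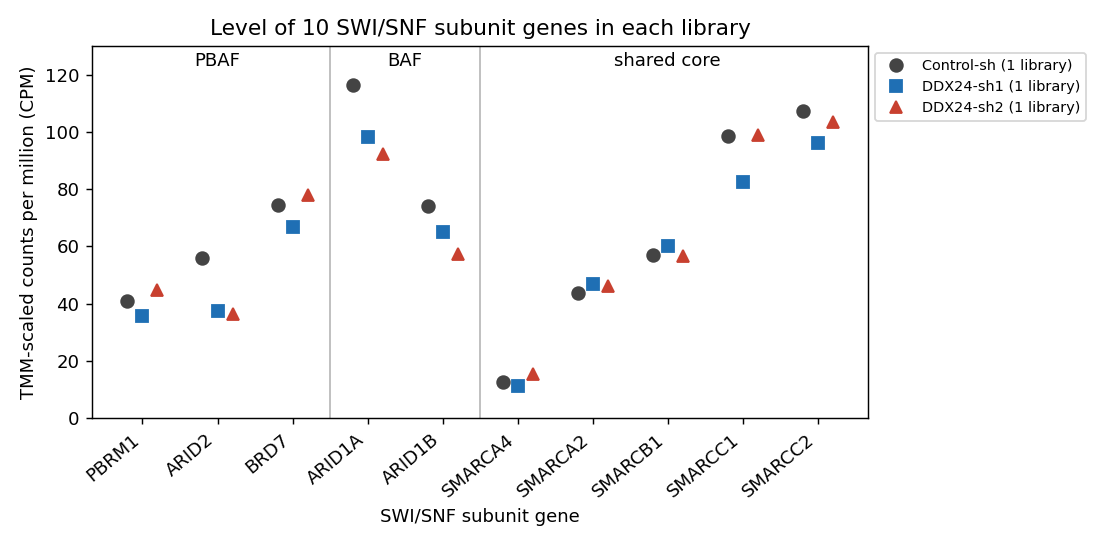
CPM after TMM scaling (vertical axis) of the 10 subunit genes (horizontal axis, grouped as PBAF, BAF and shared core), with 1 point for each library. For ARID2, ARID1A and ARID1B both shRNA libraries lie below the control, from 55.8 to 37.4 and 36.5 CPM for ARID2. CPM is not divided by gene length, so points are to be compared within a gene.

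The subunits that define canonical BAF were lower in both shRNA libraries too. ARID1A (chr1:26693236-26782110 on the plus strand), which binds DNA through its ARID domain, had 1984, 1798 and 1666 counts, or 116, 98.3 and 92.3 CPM. The shRNA libraries held 84.6% and 79.4% of the control level. In log2 units that is -0.24 (interval -0.33 to -0.15) for DDX24-sh1 and -0.33 (interval -0.43 to -0.24) for DDX24-sh2. ARID1B, its paralogue (chr6:156776020-157210779 on the plus strand), had 1266, 1190 and 1035 counts, or 74.2, 65.1 and 57.3 CPM. Both ratios of ARID1B lay below 0 beyond counting error, at -0.19 (interval -0.30 to -0.07) and -0.37 (interval -0.49 to -0.25). DDX24-sh2 was the lowest library for each of the pair, and for ARID1B its log2 ratio to DDX24-sh1 was -0.18 (interval -0.30 to -0.06). For ARID1A that ratio was -0.09, and its interval of -0.19 to 0.0061 held 0.

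ARID1A, ARID1B and ARID2, the DNA-binding ARID subunits, were the 3 members with both intervals below 0, against 20.6% of all genes tested and 25.8% of genes that averaged 10 CPM or more. They are named together after their values were seen. By the joined exons of all their transcripts the genes are long, and genes long by that measure ran low in both comparisons. Protein-coding genes that averaged 10 CPM or more were split by this length into 5 bins of like size. It is not the length of a single RNA. For SMARCB1 it is 16525 nt, against 1717 nt for the transcript with the longest coding sequence. In the bin of the longest genes (8678 nt or more) the median log2 ratio was -0.10 with either shRNA, against 0.02 and -0.03 in the bin of the shortest. The bin of the longest genes held 7 members, PBRM1, ARID2, ARID1A, ARID1B, SMARCA4, SMARCA2 and SMARCB1. The part of length in the ARID values was not tested.

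Of the ARID subunits that were lower together, ARID1A has a RefSeq promoter window without exon bases of GENCODE 29. Its 250 bases before the RefSeq start are shown for that reason. The window lies inside the span of ARID1A, which begins at 26693236, so that start is an inner one. RefSeq windows were found for 7 of the 10 members, and for ARID2, SMARCC1 and SMARCC2 none was matched. Capitals mark matches to the motifs searched on both strands.
ARID1A, chr1:26695765-26696014, plus strand, GRCh38.p14: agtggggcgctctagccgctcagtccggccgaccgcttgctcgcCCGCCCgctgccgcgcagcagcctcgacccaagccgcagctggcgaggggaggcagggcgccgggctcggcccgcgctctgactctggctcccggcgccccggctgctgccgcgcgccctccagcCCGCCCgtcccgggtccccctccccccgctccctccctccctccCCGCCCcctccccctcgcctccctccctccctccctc
The window is 80.4% G or C and holds 30 CpG dinucleotides, against medians of 58% and 11 over 35116 RefSeq windows of the same length. It holds 3 separate matches to the GC box GGGCGG, which 42.6% of all windows hold at least once. None of the other letters searched was present, namely the NRF1 motif GCGCATGC (2.63% of all windows), the ETS motif CCGGAAG (8.52%), the CCAAT box CCAAT (32.0%), the YY1 motif AAGATGGC (1.36%) and the TATA box TATAAA (10.7%). Members that were not lower in both shRNA libraries had GC boxes in a window too, BRD7 (3), SMARCA4 (4), PBRM1 (6) and SMARCA2 (2). The window of SMARCB1 and the other windows of SMARCA4, PBRM1 and SMARCA2 held none. ARID1B has windows at 2 annotated starts. The outer one has 38.8% G or C, 5 CpG dinucleotides and no GC box, and the inner one 76% G or C, 37 CpG dinucleotides and 4 GC boxes, though all 250 bases of the inner one are exon bases of GENCODE 29.

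Of the ATPases, which drive the remodelling, SMARCA4 had the fewest counts of the 10 members and the widest intervals. SMARCA4 (chr19:10960825-11079426 on the plus strand) had 214, 207 and 275 counts, or 12.5, 11.3 and 15.2 CPM. DDX24-sh2 stood above the other two. The log2 ratio to Control-sh was -0.15 in DDX24-sh1, with an interval of -0.43 to 0.13 that held 0, and 0.28 in DDX24-sh2, with an interval of 0.02 to 0.55. With TMM scaling SMARCA4 was the only member whose interval lay above 0 against the control, where 23.6% of all genes did in DDX24-sh2 and 25.0% of those that averaged 10 CPM or more. No member had both intervals above 0, against 14.0% and 16.1%. SMARCA2 (chr9:1980290-2193624 on the plus strand) had 747, 857 and 830 counts, or 43.8, 46.9 and 46.0 CPM. For SMARCA2 the ratios were 0.10 (interval -0.04 to 0.24) and 0.07 (interval -0.07 to 0.22), and a difference from 0 was not detectable at this depth.

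Of the other core subunits, SMARCC1 and SMARCC2 were lower in DDX24-sh1 and SMARCB1 was not distinguishable from the control. SMARCC1 (chr3:47585272-47782106 on the minus strand), a scaffold of the core, had 1683, 1509 and 1787 counts, or 98.6, 82.5 and 99.0 CPM. DDX24-sh1 alone stood apart, with a log2 ratio of -0.26 (interval -0.36 to -0.16) against 0.0058 (interval -0.09 to 0.10) in DDX24-sh2. SMARCC2 (chr12:56162983-56189567 on the minus strand) had 1828, 1755 and 1866 counts, or 107, 95.9 and 103 CPM. Its log2 ratios were -0.16 (interval -0.25 to -0.06) and -0.05 (interval -0.14 to 0.04). The abundant MYL6 lies over 514 nt of SMARCC2 exons on the opposite strand, with 4702, 7314 and 6792 counts, and without a stated strand setting reads there can belong to either gene. SMARCB1 (chr22:23786931-23838008 on the plus strand), which contacts the nucleosome, had 975, 1097 and 1024 counts, or 57.1, 60.0 and 56.7 CPM. The log2 ratios of SMARCB1, 0.07 (interval -0.06 to 0.20) and -0.01 (interval -0.14 to 0.12), both had intervals that held 0. The other genes that share exon bases with a member, such as DERL3 with SMARCB1 and AL512408.1 with ARID1A, had at most 24 counts in a library.

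**Figure D2:**
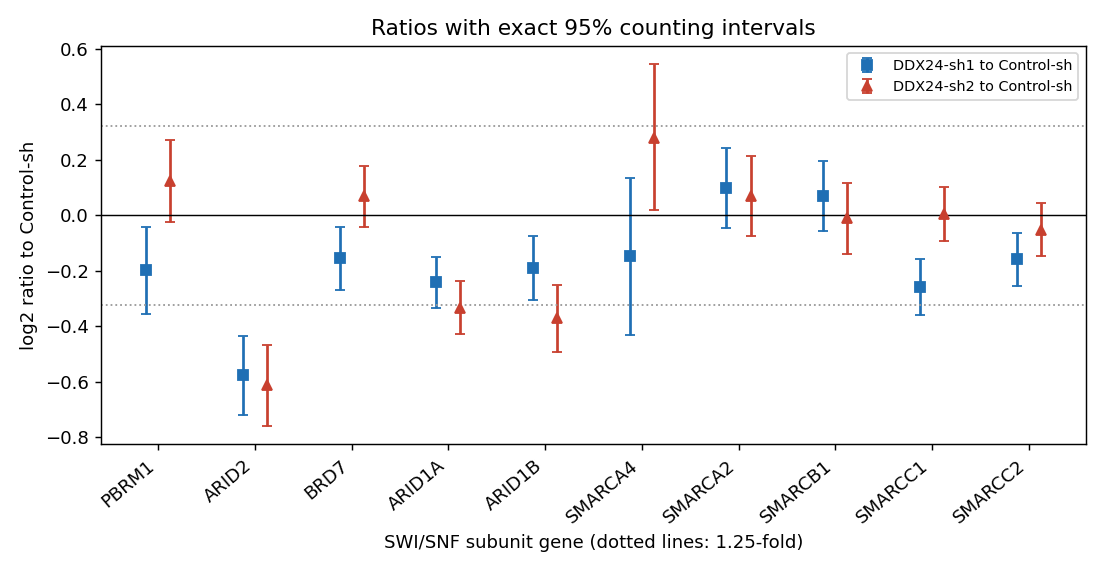
The log2 ratio to Control-sh (vertical axis) of each subunit gene (horizontal axis) in DDX24-sh1 and DDX24-sh2, with exact 95% counting intervals as bars and dotted lines at 0.32 to either side of 0. The 3 ARID genes have both intervals below 0, while PBRM1, BRD7, SMARCC1 and SMARCC2 have only that of DDX24-sh1 below 0.

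Counted by size, few members were far from the control. With a log2 ratio of 0.32 or more in size as the limit, 1 of 10 members was lower in DDX24-sh1, namely ARID2, where 20.4% of the 13984 genes tested were. In DDX24-sh2 the 3 ARID genes were lower by as much, against 21.3% of all genes. ARID1A was near the limit there and fell short of it under scaling by total counts (-0.30) and in the FPKM with the shRNA names exchanged, which left 2 members. ARID2 was the 1 member lower by that much in both libraries, against 12.4% of genes, and no member was higher by it in DDX24-sh1 (17.2% of genes) or in DDX24-sh2 (17.7%) or in both (10.2%). Apart from the 3 ARID genes in DDX24-sh2, these shares lie below the background, and with 10 members the counts do not set the list apart. At 1.5-fold ARID2 alone was left, in DDX24-sh2 (9.51% of all genes), with no member in DDX24-sh1 (8.25%) or in both (4.72%). At 2-fold no member was lower in DDX24-sh1 (2.27% of all genes), in DDX24-sh2 (3.07%) or in both (1.38%).

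Counted by interval, the members leaned low in DDX24-sh1. There 7 of 10 intervals lay below 0, against 29.5% of all genes and 35.7% of the 9661 genes that averaged 10 CPM or more, a level every member reached. No interval lay above 0 there, against 23.6% and 26.4%. In DDX24-sh2 the 3 ARID genes had intervals below 0, against 30.8% and 37.2%. The median log2 ratio of the 10 members was -0.17 in DDX24-sh1, beside -0.02 over all genes tested, and -0.0021 in DDX24-sh2, beside -0.03. By joined exon length the members lie in the bin of the longest genes and the bin next to it. The medians of these bins in DDX24-sh1 were -0.10 and -0.05, and the part of length in the lean was not tested. In size the members lay closer to 0 than the typical gene. Their median absolute log2 ratio was 0.17 and 0.10 in the 2 comparisons, against 0.24 in each over all genes tested and 0.20 in each over genes that averaged 10 CPM or more. Both comparisons use the same control library, so they are not independent of each other.

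**Figure D3:**
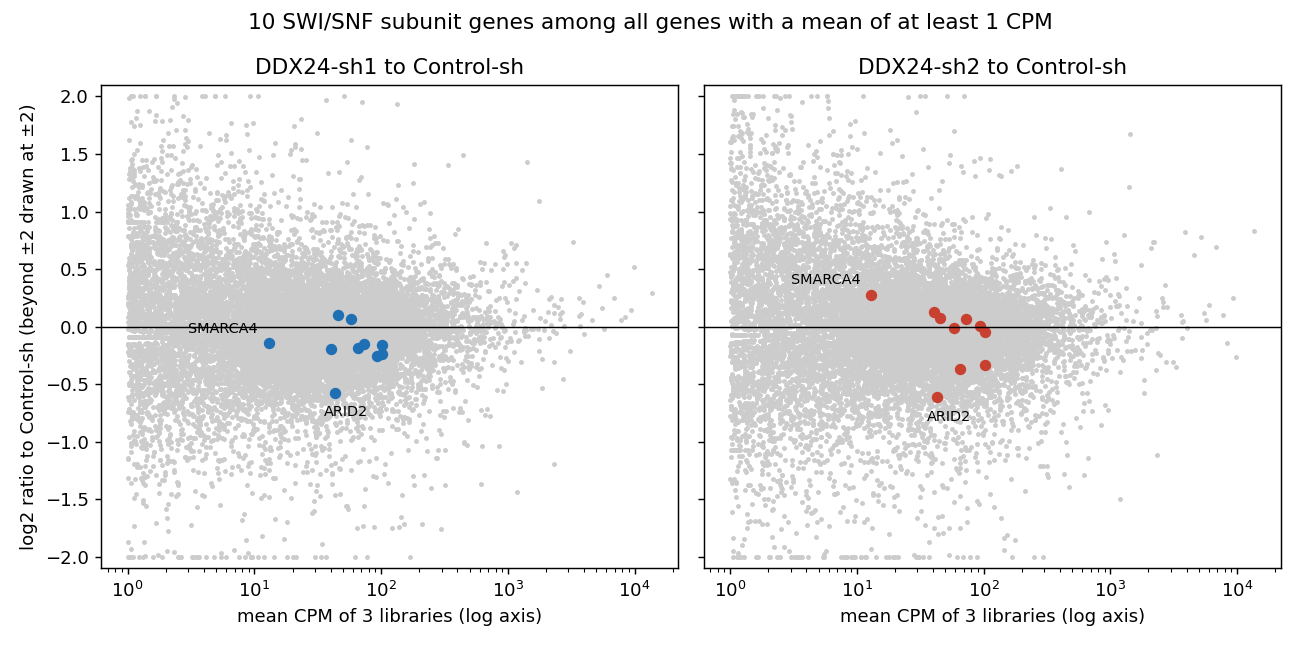
The log2 ratio to Control-sh (vertical axis) against mean CPM on a log axis (horizontal axis) for all 13984 genes tested (grey) and the 10 members (coloured), with DDX24-sh1 on the left and DDX24-sh2 on the right. The members lie inside the cloud of genes of like level, with ARID2 lowest at -0.58 and -0.61 and SMARCA4 farthest left.

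Comparison of the shRNA libraries does not use the control. Between them 5 members were higher in DDX24-sh2 beyond counting error, PBRM1, BRD7, SMARCA4, SMARCC1 and SMARCC2, against 21.0% of all genes and 23.5% of those that averaged 10 CPM or more. ARID1B alone was lower beyond counting error, against 23.8% and 28.5%. By size SMARCA4 alone passed 0.32, with a log2 ratio of 0.43 (interval 0.16 to 0.70), where 13.8% of genes were higher and 14.5% lower by that much. PBRM1 lay at that limit, just under it with TMM and a prior count of 2, and passed it with a prior count of 0.5 and under scaling by total counts (0.34), which made 2 members. SMARCC1 had a log2 ratio of 0.26 (interval 0.16 to 0.36), BRD7 of 0.22 (interval 0.11 to 0.34) and SMARCC2 of 0.11 (interval 0.01 to 0.20).

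Levels of different genes were compared per length, as CPM divided by kilobases of exon sequence. With the gene lengths in the deposited counts, SMARCC1 and SMARCC2 led in Control-sh at 12.9 and 12.5 CPM per kb, followed by BRD7 at 8.76, ARID1A at 7.30, ARID2 at 4.60, PBRM1 at 4.24, SMARCB1 at 3.46, SMARCA2 at 2.35, ARID1B at 1.66 and SMARCA4 at 0.795. Of the 9 neighbouring pairs in this order, 2 did not differ beyond counting error, SMARCC1 with SMARCC2 (log2 ratio of levels 0.04, interval -0.05 to 0.14) and ARID2 with PBRM1 (0.12, interval -0.03 to 0.26). ARID2 ranked 5 in the control and 7 in both shRNA libraries, at 3.08 and 3.01 CPM per kb, but 9 in each of the 3 libraries with the transcript length described next. The lengths join the exons of all transcripts of a gene and reach 44677 nt for ARID1B, so the order depends on them. With the length of the transcript that has the longest coding sequence, BRD7 (34.7) and SMARCB1 (33.3) led in the control. SMARCA4 remained the lowest of the 10 in each library with either length, at 2.27 CPM per kb of transcript in Control-sh.

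The share of counts within pairs of paralogues does not depend on library scaling. Raw shares are not divided by length and serve to compare libraries, not the genes of a pair. ARID1A took 61.0% of the 3250 counts of ARID1A and ARID1B in Control-sh (exact Clopper-Pearson 95% interval 59.3% to 62.7%), and 60.2% and 61.7% of the pair's counts with the shRNAs, both inside that interval. SMARCA4 took 22.3% of the 961 counts of the ATPase pair in Control-sh (interval 19.7% to 25.0%). In DDX24-sh1 its share was 19.5% (interval 17.1% to 22.0%) and in DDX24-sh2 it was 24.9% (interval 22.4% to 27.5%), so the intervals of the 2 shRNA libraries were separate and each overlapped that of the control. SMARCC1 took 47.9%, 46.2% and 48.9% of its pair with SMARCC2. Among the 3 ARID genes, a comparison added after the data were seen, ARID2 took 22.7% of 4202 counts in Control-sh (interval 21.4% to 24.0%). It took 18.6% in DDX24-sh1 (interval 17.4% to 19.9%) and 19.6% in DDX24-sh2 (interval 18.3% to 21.0%), and both intervals lay below that of the control. Per length, with the lengths in the deposited counts, the shares in Control-sh were 81.5% for ARID1A, 25.2% for SMARCA4 and 50.7% for SMARCC1.

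**Figure D4:**
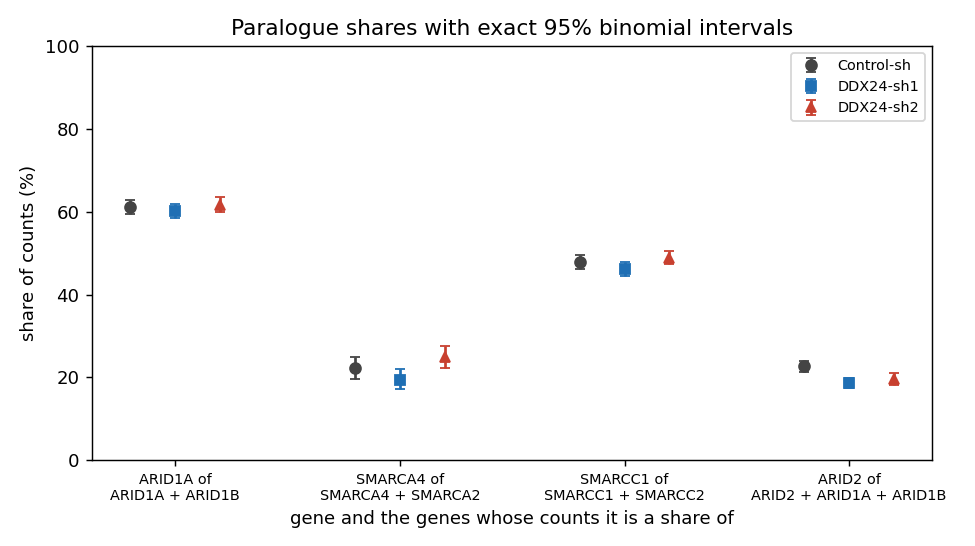
Share of counts in percent (vertical axis) of the gene named first in each set of paralogues (horizontal axis) in each library, with exact 95% binomial intervals as bars. ARID2 drops from 22.7% of the ARID counts in the control to 18.6% and 19.6%, while ARID1A keeps between 60.2% and 61.7% of its pair.

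The other subunits of SWI/SNF complexes were examined as a list of 20 genes, of which 16 averaged 1 CPM or more. ACTL6B, an actin-related subunit of neurons, had 0 counts in each library, and DPF3, BCL11A and BCL11B fell below the limit. By 0.32 or more in log2 units, 2 of the 16 were higher in both shRNA libraries, SMARCE1 and BRD9, against 10.2% of all genes. Another 3 were lower in both, PHF10, BCL7A and BICRAL, against 12.4% of all genes. BICRAL (-0.45 and -0.49) was named after its values were seen. The medians of the list were -0.14 (DDX24-sh1) and 0.06 (DDX24-sh2).

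PHF10, which like ARID2 belongs to PBAF and not to the other SWI/SNF complexes, had 592, 358 and 405 counts. Both shRNA libraries were lower, by log2 ratios whose values were -0.82 (interval -1.02 to -0.63) and -0.63 (interval -0.81 to -0.44). PHF10 shares 184 nt of exon with C6orf120 on the opposite strand, which had 475, 419 and 445 counts. Over 146 nt it overlaps AL354892.2 on its own strand, at 2, 4 and 10 counts. BRD9, the bromodomain subunit of non-canonical BAF, had 335, 499 and 636 counts and was higher in both, at 0.47 (interval 0.27 to 0.68) and 0.84 (interval 0.65 to 1.04). It shares 182 nt of exon with TRIP13 on the opposite strand and 222 nt with ZDHHC11 on its own, whose counts were 1020, 985 and 1194 and 64, 88 and 195. BCL7A, a subunit shared by the complexes, had 323, 223 and 228 counts, with ratios at -0.63 (interval -0.89 to -0.38) and -0.58 (interval -0.83 to -0.33). SMARCE1, a core subunit with an HMG domain, had 78, 120 and 192 counts, with ratios at 0.51 (interval 0.10 to 0.95) and 1.20 (interval 0.83 to 1.62). The value of SMARCE1 is uncertain, because AC073508.2, listed at 0 counts in each library, shares 3697 nt of exon with it on the same strand, and how reads in shared exons were counted is not stated.

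Of the PBAF-specific genes, PBRM1, ARID2, BRD7 and PHF10, then, ARID2 and PHF10 were lower in both shRNA libraries and PBRM1 and BRD7 in DDX24-sh1 only. This grouping was made after the values were seen. Other families of chromatin regulators were looked at for comparison, with no test between lists. Over all genes tested, 12.4% were lower and 10.2% higher by 0.32 or more in both shRNA libraries. The lists are small, so their counts do not set them apart from these shares. Among the 10 ISWI genes tested the median log2 ratio was -0.26 for DDX24-sh1 and -0.27 for DDX24-sh2, with 3 of 10 lower by 0.32 or more in both and 0 higher. Those were BAZ1B (-0.51 and -0.37), BAZ2A (-0.41 and -0.50) and BAZ2B (-0.40 and -0.33), of which BAZ1B and BAZ2B were named after their values were seen. RSF1, at -0.59 and -0.3169, was short of the limit in DDX24-sh2. The 15 NuRD genes had medians of -0.0085 and -0.10, and 1 of them, CHD5, was higher by that much in both, from 14 counts to 35 and 49, whereas MTA1 had ratios of -0.45 and -0.23. The 16 INO80 and SRCAP/TIP60 genes had medians of -0.08 and 0.05, with 3 lower by that much in both, among them INO80 (-0.49 and -0.65) and the scaffold TRRAP (-0.39 and -0.53). Of 9 Polycomb PRC2 genes none passed that limit in both. EZH2, the methyltransferase of PRC2, went from 391 counts to 324 in DDX24-sh1 and 533 in DDX24-sh2, at ratios of -0.37 (interval -0.59 to -0.15) and 0.36 (interval 0.18 to 0.56), and its partner EED had ratios of 0.12 and 0.55.

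**Figure D5:**
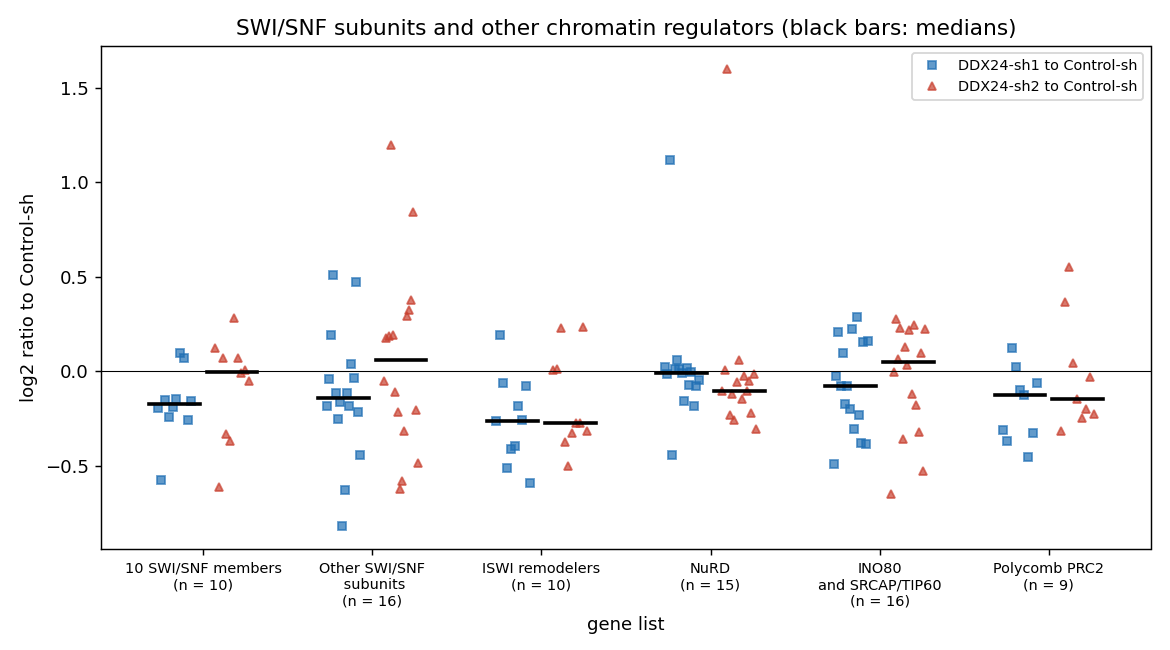
The log2 ratio to Control-sh (vertical axis) of each gene tested in the 10 SWI/SNF members, the other SWI/SNF subunits and 4 families of chromatin regulators (horizontal axis), with black bars at the medians. The members range from -0.58 to 0.10 with DDX24-sh1 and from -0.61 to 0.28 with DDX24-sh2, within the range of the other SWI/SNF subunits.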

How the data were processed

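RNA from A549 cells was measured in 3 libraries, 1 per condition, and grouped by the sample titles. The authors deposited raw counts per gene and FPKM values per gene. Bowtie2 2.0.6, TopHat2 2.0.9, Cufflinks 2.1.1 and Cuffdiff 2.1.1 are named in the submitters' processing notes without a role. The counter, its strand setting and the genome build are not given in the sources used here. Identifiers, starts and ends of all 58735 genes equal those of GENCODE 29 (GRCh38). In the deposited FPKM, FPKM times length over count was constant within 1% for 100% of genes with at least 50 counts in Control-sh, and in the shRNA libraries only with their names exchanged, so FPKM served as an alternative.

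Counts were scaled by TMM in edgeR 4.0.16 (R 4.3.3), and log2 ratios used CPM with a prior count of 2. One count equals 0.0547 to 0.0586 CPM. Without replicates no count test or p-value was possible. Intervals are exact 95% conditional binomial (Clopper-Pearson) intervals in scipy 1.17.1. They cover counting error alone, and PCR copies were not told apart by molecular identifiers. Gene groups were described by counts at or past a log2 ratio of 0.32 and medians, beside all genes that averaged 1 CPM or more. The members, lists and limits were chosen with earlier results of these data known. Named from the other lists were genes past 1.5-fold in either library, or otherwise the 2 with the largest mean ratios in size, and the 3 genes nearest PBRM1 in both ratios. Copies were searched with BLAST 2.17.0. The steps were tested on simulated data. Alternatives were DESeq2 1.42.0 size factors, total counts, a prior count of 0.5, log2(FPKM + 0.1) with names as given or exchanged, folds of 1.5 and 2, other filters, and other lengths.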

Additional observations from a re-analysis of the deposited data

Results flagged for a closer look

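For 6 of the 10 members the shRNA libraries differed from each other beyond counting error, and the difference against variation between cultures was not tested. With DDX24-sh1 as the base, the log2 ratio was 0.32 for PBRM1, 0.22 for BRD7, 0.43 for SMARCA4, 0.26 for SMARCC1 and 0.11 for SMARCC2. For ARID1B it was -0.18. Over all genes tested, 21.0% were higher and 23.8% lower beyond counting error in this comparison. Of genes that averaged 10 CPM or more, as every member did, 23.5% were higher and 28.5% lower. With 10 members the count does not set the list apart from these shares.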

How the results depend on the processing

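No paired analysis was possible because each condition has 1 library, and for the same reason no library could be left out. DESeq2 size factors, a prior count of 0.5 and the FPKM with the shRNA names exchanged moved no ratio of a member beyond its interval. Members lower by 0.32 in DDX24-sh2 numbered 2 in place of 3, without ARID1A, under total counts and in the FPKM with names exchanged. PBRM1 joined SMARCA4 past that limit between the shRNA libraries with a prior count of 0.5 and under total counts, and had an interval above 0 in DDX24-sh2 under total counts, making 2 members in place of 1. With the FPKM names as given, PBRM1 had ratios of 0.13 with DDX24-sh1 and -0.18 with DDX24-sh2, so its direction in each library follows the naming, and DDX24-sh2 to DDX24-sh1 became -0.31. BRD7 (0.077) and SMARCC1 (0.015) then reversed in DDX24-sh1 and SMARCA4 (-0.12) in DDX24-sh2. Between the shRNA libraries BRD7 (-0.22), ARID1B (0.17), SMARCA4 (-0.38), SMARCC1 (-0.26) and SMARCC2 (-0.10) reversed too. The medians of the 10 members became 0.0070 and -0.15, and the members lower by 0.32 or more numbered 2 and 1. ARID2 (-0.59 and -0.55), ARID1A (-0.32 and -0.23) and ARID1B (-0.34 and -0.17) stayed below 0 in both libraries. At 1.5-fold, 0 members were lower in DDX24-sh1, 1 in DDX24-sh2 and 0 in both, and at 2-fold 0 in each. Of genes that averaged 10 CPM or more the share higher by 0.32 in DDX24-sh2 was 11.1% and in both 6.33%, and with no filter it was 27.4% with DDX24-sh1 and 31.3% with DDX24-sh2. The ARID1A share of its pair in Control-sh was 66.4% per length of the longest coding transcript and that of SMARCC1 37.3%, the length being a choice made after seeing the data. Depth limits SMARCA4 most, whose interval against the control in DDX24-sh1 ran from -0.43 to 0.13.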

Other observations

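The 3 genes nearest to PBRM1 in the plane of both log2 ratios, among 9660 other genes that averaged 10 CPM or more, were DCUN1D3 (distance 0.0048), NOL8 (0.0061) and UFSP2 (0.0075). The likeness rests on 3 libraries, and 53 genes lay within 0.05 of PBRM1. NOL8 had 735, 686 and 844 counts, beside 699, 653 and 806 for PBRM1.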
